A study of Mus musculus with 13 samples.

Results

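Joins between a break at c-myc and the rest of its own chromosome, more than 1 Mb from the cassette breaks, were mapped in mouse B cells and fibroblasts by high-throughput genome-wide translocation sequencing (HTGTS). In this assay 1 fixed DNA break, the bait, is made with the I-SceI nuclease, and the sequence that became joined to it, the prey, is read out at its junction. The junctions described here were selected on their measured position: prey on chromosome 15 below position 60808880 or above position 62933263 of the mm9 genome, leaving out junctions with the gene label Ly6e. These bounds lie 1.01 Mb outside the bait break at 61818880 and the partner break at 61923263, which are the peaks of the 2 main junction clusters. This gave 319 of the 9577 junctions in 7 c-myc libraries, and of 16455 junctions in all 13 libraries of the series. The Ly6e exclusion took out 6 junctions, all from B cells.

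The c-myc B cells (3 libraries, replicates 14, 36 and 37) came from spleen, had the genotype c-myc25-2xI and had received anti-CD40 and IL-4 for activation. The c-myc fibroblasts (4 libraries, replicates 1 to 4) were SV40-transformed tail cells of genotype c-myc25xI;RosaI-SceI-GR without activation. As controls with their cassette on chromosome 12, the same stretches of chromosome 15 were read in 3 libraries each of IgH2-28xI B cells (anti-CD40 and IL-4) and IgH2-28xI T cells (ConcanavalinA and IL-2). Cell type, genotype, activation and sequencing run change together between c-myc B cells and fibroblasts and cannot be told apart, and the labels leave unsaid whether each replicate was an animal or culture of its own, so that p-values measure the spread between libraries only. The c-myc B-cell libraries held 878 to 2918 junctions, of which 28 to 110 belong here, and the fibroblast libraries 562 to 980 junctions, of which 17 to 38 belong here. The cell type labels were checked by junctions in immunoglobulin switch regions on chromosome 12, whose breaks need the B-cell enzyme AID. All 3 B-cell libraries had them, for example 9, 67 and 30 junctions in S gamma 1 in replicates 14, 36 and 37, and the 4 fibroblast libraries had 0.

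When a chromosome is broken, its free end is rejoined mostly to the other side of the same break, but it can also join a break elsewhere. Loci on the same chromosome lie closer together in the nucleus than loci on different chromosomes, and contact falls with distance along the chromosome, so joins in cis are usually most frequent near the bait and thin out with distance. Prey that comes from transcribed genes, from fragile stretches or from sequences cut by enzymes such as AID can form hotspots on top of this decay.

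Some prey sequences show what single junctions looked like and how far neighbours at 1 gene were separate events. At Mtdh, which encodes the RNA-binding protein metadherin, B-cell replicates 14 and 37 each had a junction on the + strand, 12 bp apart. The capitals mark the 45 bases that both prey fragments share as printed (mm9, chr15:34012948-34013004 and chr15:34012960-34013019).
Mtdh, B cells 14: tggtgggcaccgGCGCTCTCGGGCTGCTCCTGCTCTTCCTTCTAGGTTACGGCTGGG
Mtdh, B cells 37: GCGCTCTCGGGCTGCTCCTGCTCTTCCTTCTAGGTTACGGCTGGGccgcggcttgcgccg

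At Trappc9, which encodes a subunit of a vesicle trafficking complex, B-cell replicate 14 had 4 junctions on the - strand that started at different bases and all ended at position 72645801. The shortest and the longest are shown (chr15:72645801-72645884 and chr15:72645801-72645903), and the capitals mark the 84 bases common to all 4. The part in front of the shared bases is made of short gaca and gaga repeats.
Trappc9, shortest: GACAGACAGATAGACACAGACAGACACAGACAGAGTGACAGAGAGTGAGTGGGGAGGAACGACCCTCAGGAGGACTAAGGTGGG
Trappc9, longest: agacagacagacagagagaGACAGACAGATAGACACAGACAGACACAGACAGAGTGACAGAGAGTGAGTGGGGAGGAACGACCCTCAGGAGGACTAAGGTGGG

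In fibroblasts some prey began with bases that also match the end of the bait, so that the exact point of joining within them is ambiguous. A prey with such bases is shown for replicates 1, 2 and 4, with the shared bases in capitals (chr15:69631373-69631412, chr15:66620812-66620851, both on the - strand, and chr15:79273410-79273449 on the + strand).
Fibroblasts 1, 3 bases: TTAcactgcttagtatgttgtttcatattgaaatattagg
Fibroblasts 2, 5 bases: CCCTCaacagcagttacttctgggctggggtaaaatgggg
Fibroblasts 4, 3 bases: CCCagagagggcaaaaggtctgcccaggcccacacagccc

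Far chromosome 15 took a similar part of all junctions in both cell types. It made up 2.64%, 3.86% and 3.19% of the junctions in B-cell replicates 14, 36 and 37, a mean of 3.23% ± 0.611 (SD, n = 3). In fibroblast replicates 1 to 4 it made up 3.88%, 4.03%, 2.90% and 3.02%, a mean of 3.46% ± 0.577 (SD, n = 4). The groups overlapped, and no test was made because position chose the junctions.

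Set against junctions on other chromosomes, the share of far chromosome 15 depended on whether chromosome 12 was counted. It was 19.3%, 16.1% and 14.1% of far chromosome 15 plus all other chromosomes in B-cell replicates 14, 36 and 37, a mean of 16.5% ± 2.66 (SD, n = 3), and 14.5%, 14.8%, 12.2% and 11.5% in fibroblasts, a mean of 13.3% ± 1.65 (SD, n = 4). These ranges overlapped. Chromosome 12, with its switch regions, gave 56, 168 and 65 junctions in the B-cell libraries and 14, 6, 1 and 6 in the fibroblast libraries. With chromosome 12 left out, an alternative added after seeing the data, the shares were 22.5%, 21.3% and 20.9% in B cells and 15.3%, 15.3%, 12.3% and 12% in fibroblasts, and the groups no longer overlapped. The mean then differed by 7.84 percentage points, against 3.22 with chromosome 12 counted.

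Without a bait break on chromosome 15 the same stretches gave few junctions. Of the junctions there and off chromosomes 12 and 15, they took 4 of 76, 2 of 73 and 0 of 36 in IgH B cells, or 5.26%, 2.74% and 0%. In IgH T cells they took 0 of 26, 3 of 62 and 0 of 8. By the limit of 3 counts, 0 of 36 allows a share of up to 8.33%, 0 of 26 up to 11.5% and 0 of 8 up to 37.5%. Every c-myc B-cell library was above every IgH B-cell library, with means of 21.6% ± 0.847 (SD, n = 3) and 2.67% ± 2.63 (SD, n = 3), 8.08-fold apart. This is a description, since position chose the junctions and 3 against 3 libraries cannot give an exact permutation p below 0.1. None of the 9 junctions of the IgH libraries lay within 10 Mb of the c-myc breaks.

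**Figure D1:**
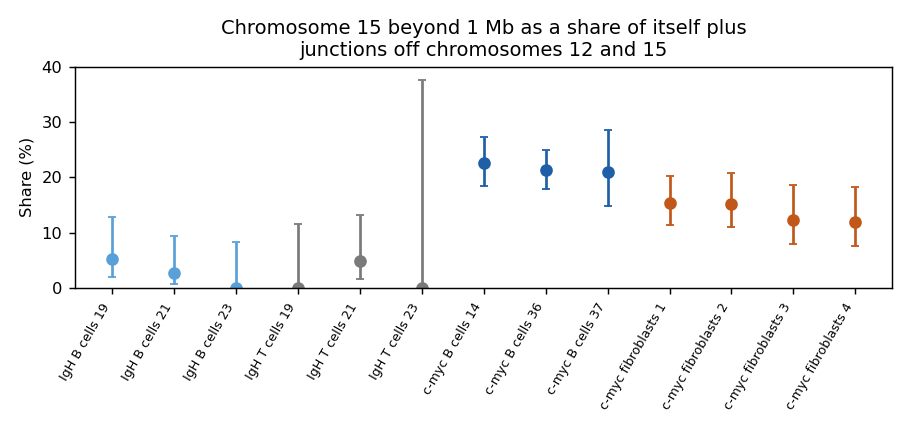
Junctions on chromosome 15 beyond 1 Mb as percent of themselves plus junctions off chromosomes 12 and 15, for each of the 13 libraries, with 95% Wilson intervals as bars, or the limit of 3 counts where the count is 0. The c-myc B-cell libraries sit at 20.9% to 22.5%, the c-myc fibroblast libraries at 12% to 15.3% and the IgH libraries at 0% to 5.26%.

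Junctions were dense close to the bounds and sparse beyond 5 Mb, and the fall was steepest on the proximal side, that is, below the bait toward the centromere. Distances are to the nearer of both breaks. Pooled over the 3 B-cell libraries, the proximal side had 29.3 junctions per Mb at 1 to 2 Mb, 9.67 at 2 to 5 Mb, 2.20 at 5 to 10 Mb, 1.20 at 10 to 20 Mb and 1.45 at 20 to 40 Mb. The first value was 20.2 times the last. In the fibroblasts the proximal side went from 8.08 to 4.33, 1.60, 0.900 and 0.900 junctions per Mb over the same bins, a ratio of 8.98. In both cell types the density stopped falling at about 10 Mb, and a scatter of junctions reached the far end of the chromosome.

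The distal side, above the partner break toward the telomere, showed an uneven course that was shallower mainly in B cells. In B cells it had 4.04 junctions per Mb at 1 to 2 Mb, 4.33 at 2 to 5 Mb and 0.80 at 5 to 10 Mb, then 2.90 at 10 to 20 Mb and 1.80 at 20 to 40 Mb. The first of these bins rests on 4 junctions, all of them in replicate 36, and the third on 4 junctions. In the first bin 3 of the 4 lay within 30 bp of each other, and counting them once left 2 junctions, or 2.02 per Mb. In fibroblasts the distal densities were 4.04, 1.67, 0.60, 1.0 and 0.60 junctions per Mb. The first distal value was 2.24 times the last in B cells and 6.73 times in fibroblasts, each with 4 junctions in the first bin. At 1 to 2 Mb the proximal side of B cells had 29 junctions against 4 on the distal side, and that of fibroblasts 8 against 4 (27 against 2 and 8 against 3 with junctions within 30 bp counted once). At 10 to 20 Mb the order was the other way in B cells, with 12 proximal and 29 distal junctions (12 and 25 counted once). In fibroblasts the sides were about equal there, with 9 and 10.

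**Figure D2:**
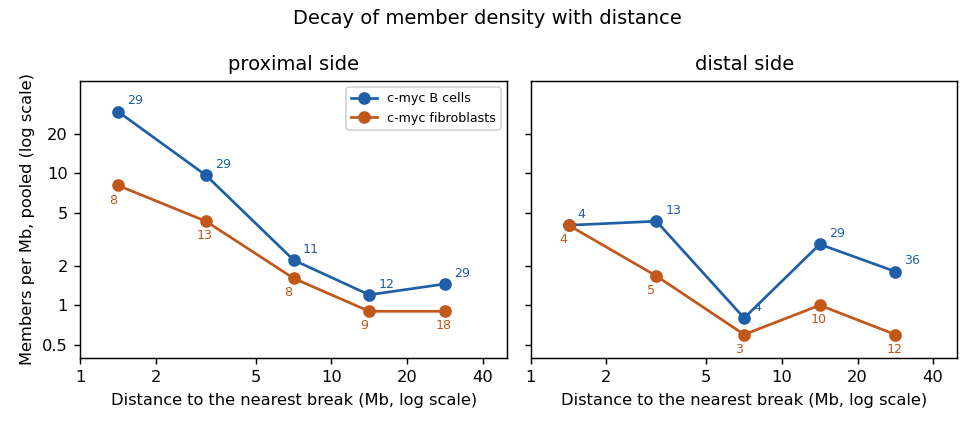
Junctions per Mb of chromosome 15, pooled over the libraries of a group, against the distance to the nearer break, on log scales, with the number of junctions beside each point. Proximal B-cell density falls from 29.3 to 1.20 per Mb by 10 to 20 Mb, while the distal side holds 4.04 per Mb at 1 to 2 Mb in both groups (2.02 in B cells and 3.03 in fibroblasts with junctions within 30 bp counted once) and rises again after 5 to 10 Mb.

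Library by library, the surplus close to the proximal bound was not carried by 1 B-cell library alone, but the distance bins were filled unevenly. At 1 to 2 Mb on the proximal side, B-cell replicates 14, 36 and 37 had 7, 19 and 3 junctions, and at 2 to 5 Mb they had 18, 8 and 3. Fibroblast replicates 1 to 4 had 3, 3, 2 and 0 junctions in the first of these bins and 5, 5, 2 and 1 in the second. Of all proximal junctions of the B cells, 58 of 125 (46.4%) lay within 5 Mb, against 17 of 90 (18.9%) of the distal ones. In fibroblasts these were 21 of 68 (30.9%) and 9 of 36 (25%). Taken per library, the proximal share within 5 Mb exceeded the distal share by 43.2, 17.3 and 24.6 percentage points in the B cells, and by 5.77, 28.1 and 15 points in fibroblast replicates 1 to 3. In fibroblast replicate 4 it was lower by 40.9 points, on 11 proximal and 6 distal junctions. The mean difference over the 7 libraries, a comparison added after the data had been seen, was 13.3 points and did not pass a two-sided exact sign-flip permutation test (p = 0.219, adjusted p = 0.292, higher in 6 of 7 libraries). Without fibroblast replicate 4, the only library that went the other way, the mean difference was 22.3 points. No p-value is given for it, because leaving out that library fixes the outcome of the test. Position also chose the junctions, so this comparison of positions is a description.

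The distribution over the chromosome did not differ detectably between B cells and fibroblasts. The distal side held 39.0%, 42.7% and 46.4% of the junctions in the B-cell libraries, a mean of 42.7% ± 3.73 (SD, n = 3), and 31.6%, 32.3%, 44.4% and 35.3% in the fibroblast libraries, a mean of 35.9% ± 5.92 (SD, n = 4). The difference of 6.81 points was near the spread between libraries (exact permutation p = 0.143, adjusted p = 0.7). The median distance was 10.7, 13.4 and 15.4 Mb in the B-cell libraries and 18.1, 19.7, 7.60 and 17.5 Mb in the fibroblast libraries, and the groups overlapped through fibroblast replicate 3 (exact permutation p = 0.514, adjusted p = 0.76). Within 10 Mb of a break lay 40.7% ± 4.87 (SD, n = 3) of the B-cell and 40.4% ± 15.1 (SD, n = 4) of the fibroblast junctions (exact permutation p = 1). With 3 against 4 libraries and adjustment over 7 tests, a difference in a single measure could not have passed the threshold, however large. This holds for all 7 comparisons of B cells with fibroblasts, which therefore cannot show that the groups are alike. Position also chose the junctions, so the values on position are given as a description. Split by side, the pooled median distance was 6.60 Mb proximal and 18.0 Mb distal in B cells, and 17.2 and 17.3 Mb in fibroblasts.

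The outermost junctions lay near both ends of the chromosome. On the proximal side the farthest was at position 4171297, 57.6 Mb from the bait, on the + strand in B-cell replicate 36, and on the distal side at 103122025, 41.2 Mb from the partner break, on the + strand in B-cell replicate 14 at Copz1, a gene for a coat protein of transport vesicles. At the bounds that chose the set, the nearest proximal junction inside was at 60800086 (1.02 Mb, B-cell replicate 36) and the nearest outside at 60875539 (0.943 Mb, fibroblast replicate 2). The nearest distal ones were at 62979589 inside (1.06 Mb, fibroblast replicate 3) and at 62919528 outside (0.996 Mb, B-cell replicate 36). Single positions are as deposited.

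**Figure D3:**
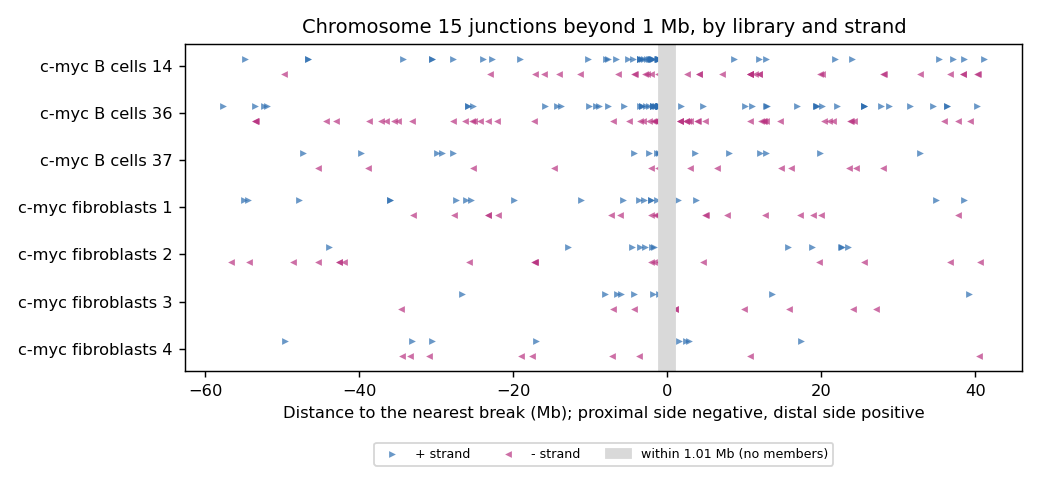
Each of the 319 junctions by its distance to the nearer break (Mb, proximal negative, distal positive), in 1 row per library, with + strand prey as right-pointing and - strand prey as left-pointing triangles. Proximal + strand prey crowd against the grey 1.01 Mb bound in B-cell replicates 14 and 36, and all libraries have junctions scattered over both arms of the plot.

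A prey on the + strand is read from its junction toward higher coordinates. Prey below the bait on the + strand and prey above the partner on the - strand are therefore read toward the c-myc breaks, and the other prey away from them. Over all distances the + share was near an even split, at 55.8%, 50% and 53.6% in B cells and 52.6%, 38.7%, 50% and 47.1% in fibroblasts. The means of 53.1% ± 2.95 (SD, n = 3) and 47.1% ± 6.04 (SD, n = 4) differed by 6.04 points, with overlap (exact permutation p = 0.2, adjusted p = 0.7).

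From the bound out to 5 Mb, B-cell prey were read toward the breaks more often than away. In this stretch, 22 of 28, 28 of 39 and 5 of 8 prey were read toward the breaks in B-cell replicates 14, 36 and 37, or 78.6%, 71.8% and 62.5%. Beyond 5 Mb it was 67.3%, 42.3% and 55.0%. On the proximal side 41 of the 58 B-cell prey within 5 Mb were on the + strand, and on the distal side 14 of the 17 were on the - strand, so that both sides leaned toward the breaks between the bound and 5 Mb. Nearer in, at 10 kb to 1 Mb, the sides differed: 71 of 108 proximal B-cell prey (65.7%) but 25 of 153 distal ones (16.3%) were read toward the breaks. Counting junctions within 30 bp of each other once, 47 of 67 B-cell prey within 5 Mb were read toward the breaks. The 17 distal prey then came down to 13, and those that merged were all on the - strand. Of the 17, 12 were in replicate 36.

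Fibroblast prey within 5 Mb were read toward the breaks in 6 of 11, 6 of 9, 5 of 6 and 0 of 4 cases in replicates 1 to 4. By the limit of 3 counts, 0 of 4 allows a share of up to 75%. The B-cell mean was 71.0% ± 8.07 (SD, n = 3) and the fibroblast mean 51.1% ± 36.1 (SD, n = 4), 19.8 points apart and within the spread between libraries (exact permutation p = 0.486, adjusted p = 0.76). Without fibroblast replicate 4 the difference was 2.77 points. Over the 7 libraries the share within 5 Mb exceeded the share beyond by 6.58 points, in 5 of 7 libraries (exact sign-flip permutation p = 0.562), and by 15.4 points without fibroblast replicate 4 (exact sign-flip permutation p = 0.125). These comparisons of orientation at 5 Mb were also added after the data had been seen. The difference in + share between the proximal and the distal side was 42.3, 5.57 and 13.8 points in the B-cell libraries and 28.2, -16.7, 45.0 and -30.3 points in the fibroblast libraries, so that the sign varied among fibroblasts (exact permutation p = 0.543, adjusted p = 0.76).

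**Figure D4:**
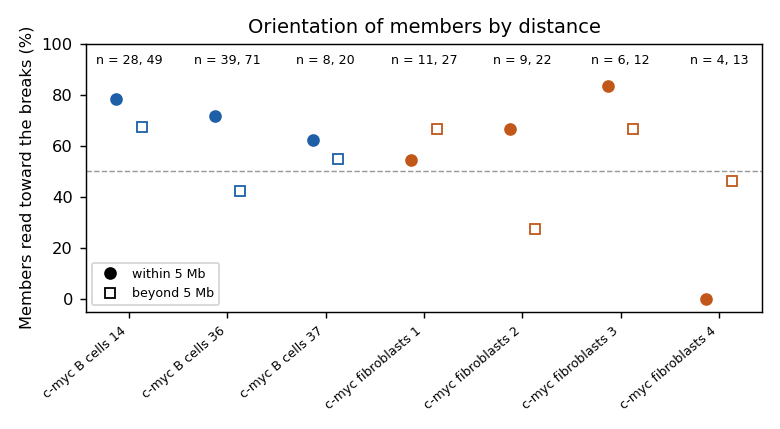
Percent of prey read toward the c-myc breaks in each c-myc library, within 5 Mb (filled circles) and beyond 5 Mb (open squares), with the number of junctions of both classes above and an even split as the dashed line. B-cell libraries lie at 62.5% to 78.6% within 5 Mb, while fibroblast libraries spread from 0% to 83.3% on 4 to 11 junctions.

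Gene labels, which the deposited tables give for some prey, were carried by 128 of the 319 junctions. They were carried by 49.4%, 36.4% and 32.1% of the junctions in B-cell replicates 14, 36 and 37, and by 39.5%, 45.2%, 27.8% and 41.2% in fibroblast replicates 1 to 4. The means of 39.3% ± 8.97 (SD, n = 3) and 38.4% ± 7.47 (SD, n = 4) differed by 0.888 points (exact permutation p = 0.914, adjusted p = 1).

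Far chromosome 15 junctions had a gene label less often than junctions on other chromosomes of the same library. On other chromosomes the labelled share was 60.1%, 62.1% and 74.9% in B cells and 46.4%, 46.1%, 43.4% and 59.5% in fibroblasts. The difference was 17.3 points on average, lower in 7 of 7 libraries, though by only 0.906 points in fibroblast replicate 2 (exact sign-flip permutation p = 0.0156, the smallest that 7 libraries can give, adjusted p = 0.0625). It thus missed the threshold after adjustment over 4 such tests. The Ly6e exclusion took labelled junctions out of far chromosome 15 only. With them kept, the difference (far chromosome 15 minus other chromosomes) was -16.5 points, again lower in 7 of 7 libraries (exact sign-flip permutation adjusted p = 0.0625). Leaving out chromosome 12, where switch regions are labelled, it was 13.5 points and still lower in 7 of 7 libraries (exact sign-flip permutation p = 0.0156, adjusted p = 0.0625).

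Labels were rare on the proximal side close to the bound. At 1 to 2 Mb there, 2 of 29 B-cell junctions and 0 of 8 fibroblast junctions had a label. Inside the bound, at 10 kb to 1 Mb from the breaks, 8 of 108 proximal and 112 of 153 distal B-cell junctions had one, as did 3 of 41 and 7 of 9 fibroblast junctions, so that the sides differed there. Among the junctions beyond the bound, within 5 Mb on both sides it was 21 of 75 in B cells (28.0%) and 9 of 30 in fibroblasts (30%), and beyond 5 Mb it was 66 of 140 (47.1%) and 32 of 74 (43.2%). Per library the share was higher beyond 5 Mb in 6 of 7 libraries, by 16.4 points on average (exact sign-flip permutation p = 0.0469, adjusted p = 0.0938), in a comparison added after the data had been seen. With the bounds at 2 Mb instead, the difference was 0.715 points (exact sign-flip permutation p = 0.906), so it rests on the junctions at 1 to 2 Mb.

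**Figure D5:**
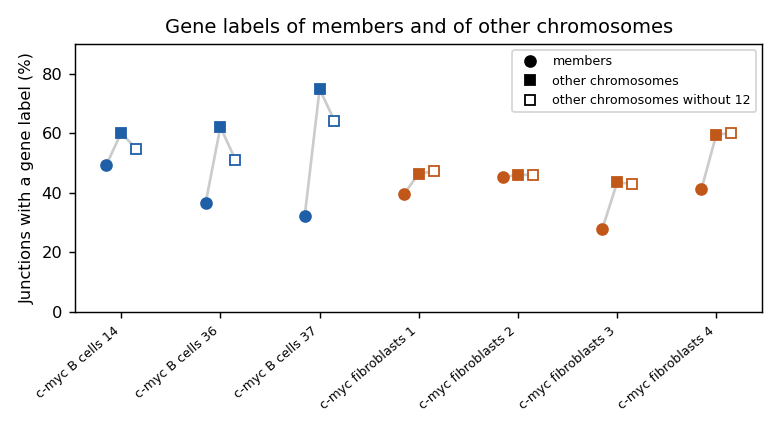
Percent of junctions with a gene label in each c-myc library, for chromosome 15 beyond 1 Mb (circles), all other chromosomes (filled squares) and other chromosomes without chromosome 12 (open squares). The circles lie below both squares in 7 of 7 libraries, at 27.8% to 49.4% against 43.4% to 74.9% on all other chromosomes.

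The labels named 91 genes or gene groups, and 69 of them were carried by a single junction. Of the 91, 81 were current RefSeq symbols and 9 older synonyms, 1 (11-Mar) has the form of a spreadsheet date, and 89 matched genes on chromosome 15. The 63 labels of B cells and the 39 of fibroblasts shared 11, which is 17.5% of the former and 28.2% of the latter. No exact position was shared between libraries, though some junctions of different libraries lay close together, as at Mtdh.

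Among the 22 labels with at least 2 libraries or 2 positions, Trappc9 was carried most often. Its 6 junctions (4 in B-cell replicate 14, 1 in replicate 36, 1 in fibroblast replicate 4) spanned 35.5 kb at 10.7 Mb from the partner break and were all on the - strand, but merging those within 30 bp of each other left 3, as the nested sequences above show. Mtdh had 4 junctions in 4 libraries (all 3 of B cells and fibroblast replicate 1), 2 on each strand, over 54.2 kb at 27.8 Mb from the bait. The B-cell junctions lay close together, at 34012947, 34012959 and 34013179 in replicates 14, 37 and 36. The fibroblast junction was at 34067103. None merged, since merging was done within a library only. Zhx2, a gene for a homeobox repressor of transcription, had 4 separate junctions in 3 libraries over 90.9 kb at 4.19 Mb. Fam19a5, now Tafa5, which encodes a small secreted protein, had 4 junctions that merged to 2.

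Labels with 3 junctions were Csmd3, Kcnq3, Mtss1, D15Ertd621e and Nipbl. Csmd3, a very long gene for a membrane protein with CUB and sushi domains, had junctions spread over 414 kb in B-cell replicates 14 and 36. Those of Nipbl, whose product loads cohesin onto DNA, were all in B-cell replicate 36, spread over 105 kb at 53.5 Mb from the bait. Mtss1, an actin and membrane scaffold gene, was hit in B-cell replicate 14 and fibroblast replicate 2. The 3 junctions of Kcnq3, a potassium channel gene, merged to 2, and the 3 of D15Ertd621e, all in B-cell replicate 14 within 4 bp, merged to 1.

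The 13 labels with 2 junctions covered diverse genes. Col14a1 (a collagen), Dap (a death-associated protein), Enpp2 (the lysophospholipid-producing enzyme autotaxin), Tbc1d22a (a TBC domain protein), Trps1 (a GATA-type repressor) and Vps13b (a lipid transport protein) each had 1 junction in B cells and 1 in fibroblasts. The 2 junctions in Dap, in B-cell replicate 14 and fibroblast replicate 4, were both on the + strand and 0.613 kb apart. Adcy8 (an adenylate cyclase), Cdh18 (a cadherin) and Tmem117 (a membrane protein) were seen in 2 B-cell libraries each, Tfcp2 (a transcription factor) in replicate 14 alone. Anxa13 (an annexin) was seen in 2 fibroblast libraries, and Fam134b, now Retreg1 (a receptor for the turnover of endoplasmic reticulum), 2 times in fibroblast replicate 1.

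Lists of genes gave the following counts. Of 26 chromosome 15 genes active in activated B cells, 1 was hit, by a single B-cell junction in Trib1, a pseudokinase gene. Of 18 fibroblast and matrix genes, 17 of which RefSeq places on chromosome 15, 5 were hit by 8 junctions, 4 in each cell type: Col14a1, Col2a1, Enpp2, Ndrg1 and Trps1. These were 4.60% of labelled B-cell and 9.76% of labelled fibroblast junctions. Of 25 long genes of chromosome 15, 13 were hit by 27 junctions, which is 21.1% of labelled junctions. In B cells it was 21 junctions (24.1% of the labelled ones) and in fibroblasts 6 (14.6%). Of the 27, 6 were in Trappc9, or 3 with junctions within 30 bp counted once. What share of chromosome 15 the listed genes cover was not measured. The lists hold genes of different length, and no test was made of them.

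In windows of 100 kb, 13 held 4 or more junctions, and 9 of these lay within 5 Mb of the breaks on the proximal side. The fullest was the window from 60700001 to 60800000, next to the bound, with 9 junctions in 5 libraries, followed by 60600001 to 60700000 with 8, all in B-cell replicates 14 and 36. Of these 17 junctions, 2 had a gene label. The window from 59700001 to 59800000 had 7 junctions in 4 libraries, 4 in B cells and 3 in fibroblasts, and none was labelled. The window from 58200001 to 58300000 had 7, or 5 after merging, among them those at Anxa13 and D15Ertd621e. Far from the breaks stood the windows of Mtdh, Trappc9 and Fam19a5 and that from 74700001 to 74800000, where 4 B-cell junctions without a label lay 12.8 Mb from the partner break.

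Some junctions may not be separate joins. Within a library and strand, 15 clusters of junctions lay within 30 bp of each other (12 in B cells, 3 in fibroblasts) and held 35 of the 319. In 13 clusters all fragments ended at the same base, and in 8 they shared the junction position as well. Counting each cluster once left 299 junctions, 198 in B cells and 101 in fibroblasts. In 3 of the pairs the bait parts of the fragments differed by 51 bases in length.

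The fragments of B-cell replicate 14 differed from the rest. In that library 67 of 77 fragments (87.0%) ended in GG, against 14.5% and 17.9% in B-cell replicates 36 and 37 and 5.56% to 7.89% in the fibroblasts. Its prey were also shorter, with a median of 60 bases against 108 and 112 in the other B-cell libraries and 83 to 148 in fibroblasts. The same held on its other chromosomes, where 77.6% ended in GG. GC content of the prey was 46.3% in replicate 14, 42.5% and 42.7% in replicates 36 and 37, and 41.9% to 44.4% in fibroblasts. With those GG fragments left out, the share of far chromosome 15 plus other chromosomes differed by 0.841 points between B cells and fibroblasts.

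Bases shared by bait and prey at the join were counted only in the fibroblasts. There, 27 of 99 prey with a matched bait overlapped the bait by at least 1 base, or 35.1%, 28.6%, 16.7% and 18.8% in replicates 1 to 4, and 16 of the 27 overlapped by a single base. On other chromosomes the fibroblast share was 28.2%, 27.5%, 27.6% and 26.8%. In B cells the deposited prey never started before the bait match ended (0 of 213, and 0 of 1054 on other chromosomes), so that the shared bases could not be counted there and no comparison was made. The first 30 bases of prey were also looked up in RefSeq promoter sequences, 250 bases before to 50 after each gene start. They matched in 2 of 208 B-cell prey, both near Gm41331 in replicate 36 and 15 bp apart, and in 0 of 101 fibroblast prey, against 15 of 1019 and 11 of 632 on other chromosomes.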

How the data were processed

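The deposited tables hold 1 line per junction, with prey position, strand, gene label and read sequence, per the file headers. The score of each alignment was deposited by the authors in matched bases less penalties, and was not tested. The build is mm9, per the submitters' processing notes. The aligner, the annotation behind the labels and whether the reference also held cassette sequence, which would shift positions above it, were not given in the sources used here. Sequence intervals count from 1. Per the labels' protocols, DNA was sonicated to 200 to 500 bp, amplified by adapter PCR and read on a MiSeq.

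Lines were counted as deposited. Each library gave 1 value, and differences between group means were put to two-sided exact permutation tests, and differences within a library to exact sign-flip permutation tests over 7 libraries, with Benjamini-Hochberg adjustment over 7 and 4 tests (threshold 0.05), tested on simulated data (Python 3.11.15, pandas 2.3.3, scipy 1.17.1). Wilson intervals and limits from 3 counts cover counting error only. Gene labels were named where carried in at least 2 libraries or 2 positions. A label that meets this rule is not reported here. Junctions and gene lists were chosen with earlier results of these data known. Gene symbols, and promoter sequences, are from RefSeq (GRCm38.p6), matched by name or sequence only.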

Additional observations from a re-analysis of the deposited data

How the results depend on the processing

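Over 15 results and 210 alternatives, 188 kept their direction and side of the threshold or stayed near the reported value, 14 changed sign, 4 moved and 4 passed the threshold. The changes of sign were in B cell minus fibroblast differences close to 0. The far share of the library went from -0.230 to 0.207 points with prey of at least 50 bases, to -1.33 with positions seen in more than 1 library left out, and over -0.545 to 0.0651 when single libraries were left out. The gene label share, at 0.888 points, was -0.235 with 1 junction per position, -0.830 merged within 30 bp, -5.56 without the GG fragments of B-cell replicate 14, and -4.14 to 4.46 leaving out libraries. The share within 10 Mb, at 0.278 points, was -0.337 with 1 junction per position, -0.806 with Ly6e kept, -1.54 without the GG fragments, -1.83 with bounds at 2 Mb, and -3.52 to 7.18 leaving out libraries. The share of far plus other chromosomes was 0.841 points without the GG fragments and 7.84 without chromosome 12. The fibroblast share with shared bases, 24.8%, was 8.75% when at least 2 bases were asked for.

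Without the GG fragments, or with prey of at least 50 bases, the label deficit against other chromosomes was -20.4 and -17.7 points and the rise beyond 5 Mb 22.7 and 21 points, each with an exact sign-flip permutation adjusted p = 0.0313. Before adjustment the deficit had the same exact sign-flip permutation p = 0.0156 in both settings as in the main one. Its adjusted p fell only because the rise beyond 5 Mb, adjusted together with it, reached that p too. Leaving out the GG fragments, an alternative added after seeing the data, kept only 10 junctions of B-cell replicate 14. Of these, 3 lay within 5 Mb and 0 of the 3 had a label. The rise in that library thereby went from -1.02 to 42.9 points. Over all libraries left out in turn, the adjusted p of the deficit was 0.0625 to 0.125. Before adjustment the exact sign-flip permutation p was 0.0313 each time, the smallest that 6 libraries can give. With the bounds at 2 Mb the deficit was -12.4 points (exact sign-flip permutation adjusted p = 0.188). Merged within 30 bp it was -16.3 points, and with 1 junction per position -16.7 points. In each of these 3 settings the label share was lower in 6 libraries and higher in 1. No paired analysis was possible because c-myc B cells and fibroblasts share no replicate numbers. Counts limit what can be seen: fibroblast replicates 3 and 4 hold 18 and 17 junctions, and within 5 Mb 6 and 4.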
